A study of Homo sapiens with 6 samples.

Results

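The genes described here are 53 hnRNP genes, SR protein genes and other sequence-specific regulators of splicing, chosen by gene symbol out of 35322 genes in the count table of 22Rv1 cells, an established human prostate carcinoma cell line. HNRNPA1, HNRNPA2B1, PTBP1, SRSF3 and RBM4 were kept out of this set. RNA from the cells was sequenced in 6 libraries, 2 of control cells, 2 of a first knockdown of ZMYND11 (ZMYND11 kd1, labelled ZM11-kd1 and called kd1 below) and 2 of a second (ZMYND11 kd2, labelled ZM11-kd2, called kd2). The study used RNA-seq of 22Rv1 cells to analyse splicing, that of PKM among it, after knockdown of ZMYND11, a chromatin reader protein. The cells grew in RPMI1640 medium with fetal bovine serum, and the labels name no treatment. The labels give the control genotype as WT and the other groups as ZMYND11 knockdown, while the study describes RNA-seq of 22Rv1 cells with stable expression of a control shRNA or of shRNAs against ZMYND11. Its methods put shRNA-infected cells under puromycin selection, first to remove uninfected cells and then at a lower dose. Which shRNA made each knockdown, and whether the 2 libraries of a group came from separate cultures, are not given in the sources used here. The p-values below therefore measure only the spread between these libraries, which may be technical.

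Splicing regulators bind short motifs in pre-mRNA and decide which splice sites the spliceosome uses. SR proteins (SRSF genes) carry an arginine- and serine-rich domain and mostly help exons to be included, and their activity is set by phosphorylation through SRPK and CLK kinases. The hnRNPs coat nascent transcripts and often oppose inclusion, while RBFOX, MBNL, CELF, QKI and ESRP proteins set splicing programs of particular cell types. Many of these genes also control their own mRNA through exons that send the transcript to decay. The values below are amounts of mRNA per gene. Splicing itself was not analysed here.

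ZMYND11 was low in every library labelled as a knockdown. Its normalized level was 140.7 and 135 CPM (counts relative to library size, with the libraries scaled by edgeR's TMM method) in the control libraries, 27.7 and 26.1 in kd1, and 21.6 and 22.7 in kd2. The libraries held between 26844128 and 38193748 counts. All 11 luminal prostate markers examined had at least 100 counts in both libraries of every group, and their summed level was 3704 to 3708 CPM of the library total in control, 3702 to 3728 in kd1 and 4522 to 4627 in kd2. Of 7 markers of blood, endothelial and connective tissue cells, PECAM1 stayed at 5 counts or fewer in every library and the list summed to 37.5 to 40.8, 76.6 to 77.3 and 44.1 to 45.4, most of it COL1A1. All 10 proliferation genes examined fell in both knockdowns, from a sum of 1401 to 1413 in control to 98.6 to 104.7 in kd1 and 175 to 187 in kd2. Their part in the results below was not tested. In bulk RNA, fewer cells of a kind and less RNA per cell cannot be told apart.

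The 53 genes together held 1.33% and 1.34% of the counts in the control libraries, 0.953% and 0.952% in kd1, and 1.20% and 1.19% in kd2. The 3 groups did not overlap in this share, which amounts to a scaling by library totals. It changed by -0.49 (log2) in kd1 and -0.17 in kd2, while the median of all genes tested, scaled by library totals alone, changed by -0.38 and -0.20. Per length of exon, HNRNPAB was the most abundant in control cells at 141 ± 3.76 CPM per kb (SD, n = 2), followed by HNRNPC at 134 ± 4.03 and HNRNPK at 123 ± 1.24. HNRNPAB and HNRNPC differed by less than 2 of these SDs. In both knockdowns HNRNPAB was the lowest of these, at 90.6 ± 0.243 in kd1, below HNRNPC at 172 ± 3.82 and HNRNPK at 146 ± 0.549, and at 101 ± 0.568 in kd2, below HNRNPK at 195 ± 4.04 and HNRNPC at 150.5 ± 6.48. The lowest were RBFOX2 at 1.27 ± 0.186, SRSF12 at 1.12 ± 0.182, MBNL3 at 0.783 ± 0.0396 and KHDRBS3 at 0.0576 ± 0.0139, of which RBFOX2 and SRSF12 overlapped within their SDs.

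**Figure D1:**
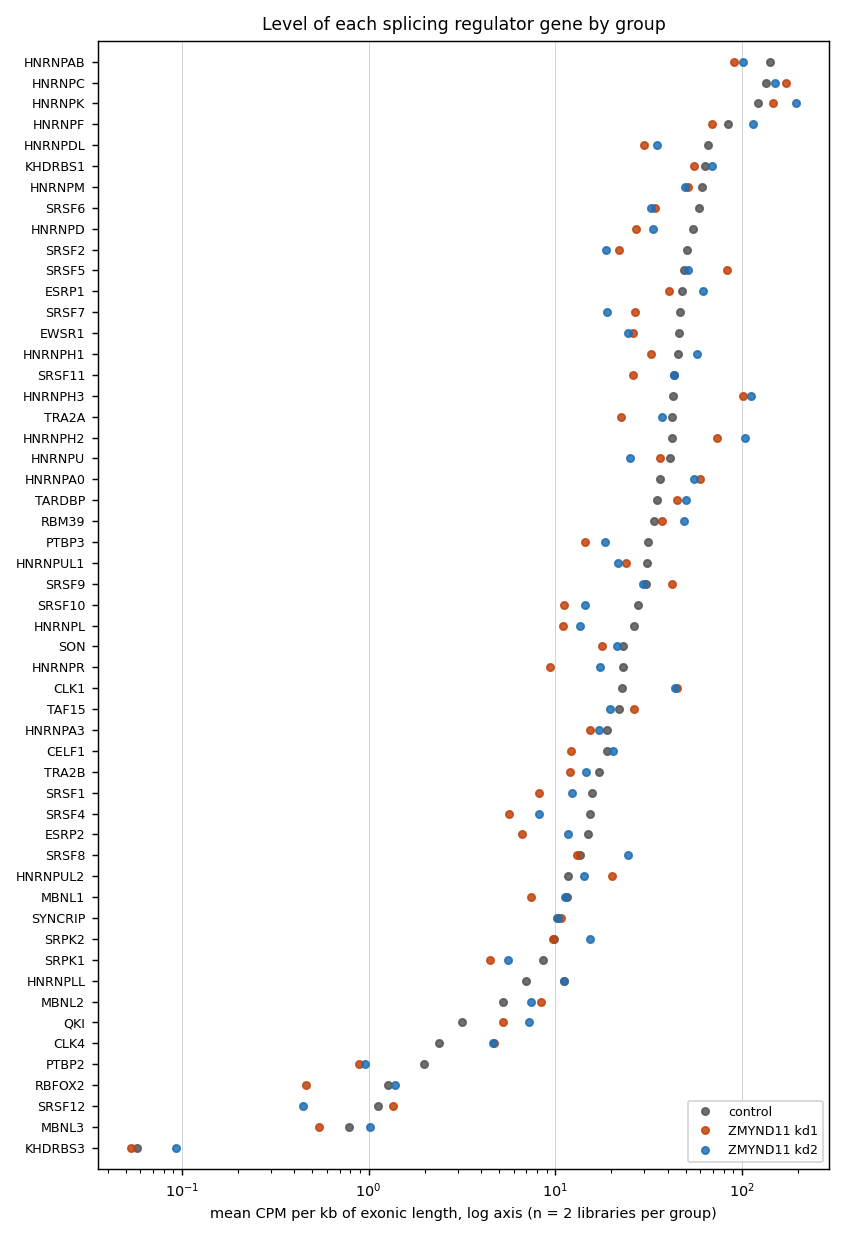
Mean level of each of the 53 genes by group, as CPM per kb of exonic length on a log axis (n = 2 libraries per group). Genes are ordered by their level in control cells, from KHDRBS3 at 0.0576 to HNRNPAB at 141.

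All 53 genes passed edgeR's filter on low counts. In kd1, 16 rose, 32 fell and 5 did not pass the test (edgeR's quasi-likelihood test, adjusted p under 0.05 over the 16510 genes tested). In kd2, 19 rose, 23 fell and 11 did not pass. These counts stand against a background in which most genes were called. Of all genes tested, 78% were called in kd1 (38.2% higher, 39.8% lower) and 73.4% in kd2 (36.5% higher, 36.9% lower), beside 90.6% and 79.2% of the splicing regulators. With a fold change of at least 1.5 as well, 58.5% of the splicing regulators and 59.7% of all genes were called in kd1, and 45.3% and 51.1% in kd2. The median log2 fold change of the splicing regulators was -0.31 in kd1 and -0.02 in kd2, against -0.03 for all genes in each.

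The knockdown libraries lay outside the range of the controls for most of them. In kd1, 17 genes had both libraries above both controls, 33 had both below and 3 overlapped, and 89.7% of all genes did not overlap. In kd2 the counts were 22 above, 25 below and 6 overlapping, with 86.3% of all genes not overlapping.

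Both comparisons use the same control libraries, so their directions are not independent. Higher in both were 13 genes (25.6% of all genes tested were), lower in both 22 (27% of all genes), called in opposite directions 4 (9.1%) and called in neither 2 (10.3%). The 13 were HNRNPA0, HNRNPC, HNRNPH2, HNRNPH3, HNRNPK, HNRNPLL, HNRNPUL2, MBNL2, QKI, TARDBP, RBM39, CLK1 and CLK4. The 22 were HNRNPA3, HNRNPAB, HNRNPD, HNRNPDL, HNRNPL, HNRNPM, HNRNPR, HNRNPU, HNRNPUL1, PTBP2, PTBP3, SRSF1, SRSF2, SRSF4, SRSF6, SRSF7, SRSF10, TRA2A, TRA2B, ESRP2, EWSR1 and SRPK1. The other 12 were called in 1 knockdown only with TMM, 9 in kd1 and 3 in kd2.

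**Figure D2:**
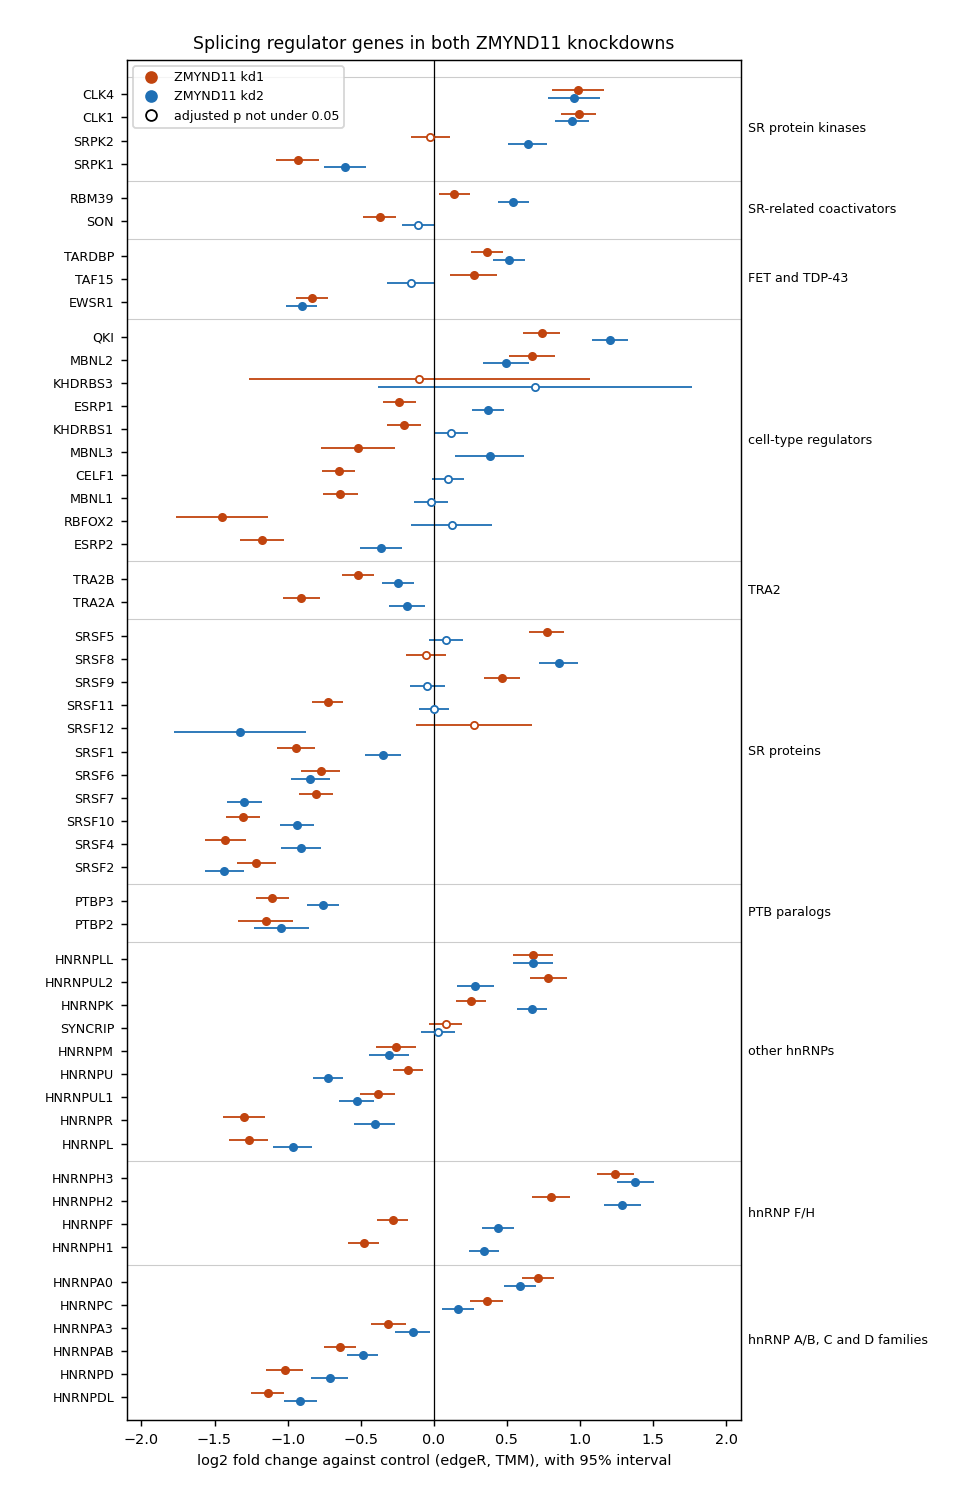
Log2 fold change of each of the 53 genes against control, with its 95% interval, in kd1 and kd2 (edgeR, TMM, n = 2 libraries per group). Open points did not pass adjusted p under 0.05, and genes are grouped by role: SR proteins lie mostly to the left of 0, CLK1, CLK4, HNRNPH2, HNRNPH3 and QKI to the right.

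How the libraries are scaled moved the split between rises and falls. Scaling by library totals alone lowered the median of all genes by 0.36 (log2) in kd1 and 0.17 in kd2 and raised it by 0.18 between the knockdowns. The splicing regulators then split into 10 higher and 36 lower in kd1 and 16 and 29 in kd2. Of all 16510 genes tested, 4596 were then higher and 8420 lower in kd1, and 4967 and 7220 in kd2. The splicing regulators have a lower GC content than the genes tested (median 41% against 48.1%) and a longer exonic length (median 6691 against 5058 bp). After correction of each library for trends with GC content and length, 23 were higher and 24 lower in kd1, and 25 and 21 in kd2. With this correction 6482 of all genes were higher and 6207 lower in kd1, and 6343 and 5834 in kd2. Of the 13 genes called higher in both, 8 kept both calls under every alternative scaling, filter, model, tool and left-out library, the minimum fold of 1.5 apart (HNRNPA0, HNRNPH2, HNRNPH3, HNRNPLL, MBNL2, QKI, CLK1 and CLK4). Of the 22 called lower in both, 18 did, and the exceptions were HNRNPA3, HNRNPU, TRA2A and TRA2B. In what follows, a call that held is one kept under all those alternatives, again with the minimum fold of 1.5 apart. The size of a change is less firm than its direction, since at least 1 of these 2 scalings moved it by over 1.5 times for 40 of the 48 genes called in kd1 and 13 of the 42 called in kd2, and for 34 of the 44 called between the knockdowns.

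**Figure D3:**
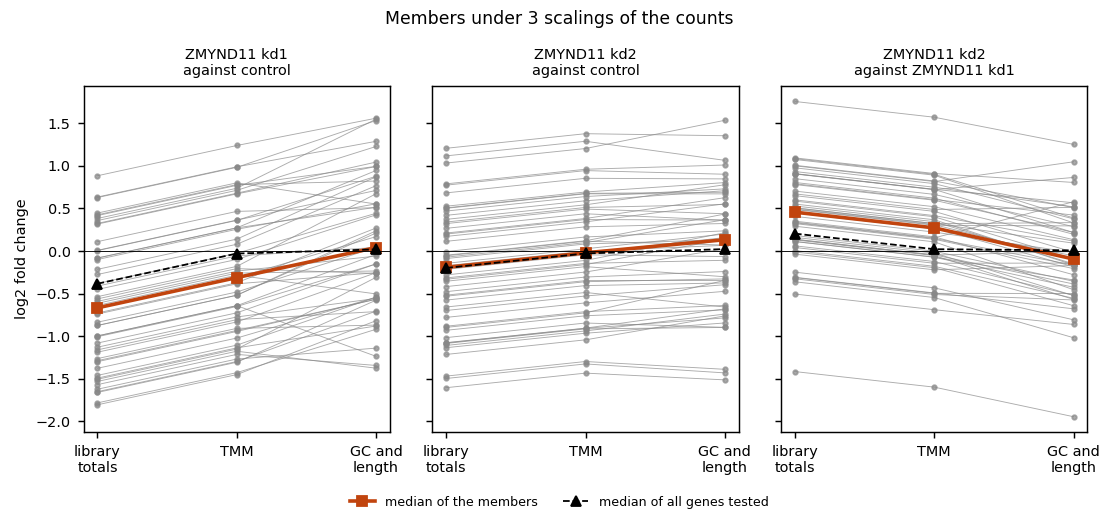
Log2 fold change of each of the 53 genes (grey lines) under library totals alone, TMM and TMM with a GC and length correction, in the 3 comparisons. Squares are the median of the 53 genes, which moves from -0.67 to 0.04 in kd1, and triangles the median of all genes tested.

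Start regions were read for a motif that several of these genes share. The letters searched were CACGTG, the E-box bound by MYC and related factors, which reads the same on both strands, in the RefSeq windows (GRCh38.p14) from 250 bases before to 50 bases after each start. Of the 53 genes, 44 had a window and 11 of these held the motif (25%), against 11.9% of the 12463 tested genes with a window. It occurred in 3 of 11 genes with a window among those higher in both knockdowns and in 5 of 19 among those lower in both. The stretches below, with the motif in capitals, are shown because they stand beside genes that moved in opposite directions.
HNRNPH3, higher in both, chr10:68331631-68331660, plus strand, 50 bases before a start: tgccggtcgaacCACGTGgggccctttccg
HNRNPH2, higher in both, chrX:101408168-101408197, plus strand, 42 bases before a start: ccgagagttgctCACGTGaccgagatctca
HNRNPD, lower in both, chr4:82374001-82374030, minus strand, 27 bases before a start: gcgctctcgcgtCACGTGaccgggacgcgc
HNRNPDL, lower in both, chr4:82430572-82430601, minus strand, 127 bases before a start: ggagcccgagacCACGTGggcaggaaaagg
The stretches were picked by the direction of their genes, and whether the motif bears on a change was not tested. A match is a run of letters and not a bound site.

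Among the hnRNP A/B, C and D families, 2 of 6 genes rose in both knockdowns and 4 fell in both, beside 25.6% and 27% of all genes. The paralogs HNRNPD and HNRNPDL, which lie close together on chromosome 4 and bind AU-rich RNA, fell most of these 6 with TMM or library totals alone. HNRNPDL (chr4:82422565-82430462 in GENCODE 44, minus strand, 1 of the genes whose start region is shown above) was at 361 and 369.5 CPM in control, 164 and 168 in kd1, and 200.3 and 187 in kd2. All 4 knockdown libraries lay below both controls, and the log2 fold changes were -1.14 ± 0.05 (SE, edgeR adjusted p = 7.23e-11) and -0.91 ± 0.05 (adjusted p = 1.151e-09). HNRNPD was at 382 and 388.5 CPM in control, 186 and 193.5 in kd1, and 249 and 222 in kd2. HNRNPAB, an RNA-binding protein also tied to mRNA transport, was at 293.5 and 305 CPM in control, 192 and 191.5 in kd1, and 213 and 214 in kd2. Its fall was -0.64 and -0.49 (log2), smaller than that of HNRNPD (-1.02 and -0.71). The order turned after the GC and length correction, with -1.24 and -0.66 for HNRNPAB against -0.54 and -0.64 for HNRNPD and -0.88 and -0.90 for HNRNPDL.

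HNRNPA0, a single-exon member that binds AU-rich elements of inflammatory mRNAs, rose. It was at 319.5 and 318 CPM in control, 521 and 524 in kd1, and 492 and 468 in kd2. HNRNPC, which binds uridine tracts and keeps Alu-derived exons out of mRNA, was at 958 and 999.5 CPM in control, 1237 and 1276 in kd1, and 1131 and 1064 in kd2. Its libraries did not overlap with the controls, but the changes were small (0.36 and 0.17, log2) and with library totals alone they were 0.01 and -0.01. HNRNPA3 fell by 0.31 and 0.14, and after the GC and length correction its change in kd1 was 0.17. Its exons share 3509 bp with NFE2L2 on the opposite strand, and since use of strand in counting is not stated, its value is uncertain. The same limit applies to other members with exons shared across strands. Among them are HNRNPU (3502 bp with COX20), SRPK1 (1879 bp with LHFPL5), SRSF9 (1725 bp with GATC) and CELF1 (234 bp with NDUFS3).

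The hnRNP F/H family binds G-rich runs, and with TMM its member HNRNPH3 had the largest rise of the 53 genes in both knockdowns. HNRNPH3 (chr10:68331174-68343193, plus strand) was at 226 and 235 CPM in control, 534 and 556 in kd1, and 630.5 and 569 in kd2. Every knockdown library was above every control, with log2 fold changes of 1.24 ± 0.06 (edgeR adjusted p = 8.273e-11) and 1.38 ± 0.06 (adjusted p = 5.147e-11), and between 0.88 and 1.56 over all alternatives in kd1. HNRNPH2, on the X chromosome, was at 96.2 and 98.1 CPM in control, 168 and 171 in kd1, and 250.3 and 224.5 in kd2.

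The other members of the family moved in opposite directions in the knockdowns. HNRNPF was at 275 and 277 CPM in control, 225 and 229 in kd1, and 382.5 and 365 in kd2. Its difference between the knockdowns was 0.72 ± 0.05 (log2, edgeR adjusted p = 1.169e-08), and each of its calls held. HNRNPH1 was at 429.5 and 432 CPM in control, 312 and 306 in kd1, and 547 and 545.5 in kd2. Its change in kd1 was -0.48 and became 0.04 after the GC and length correction, so its opposite directions rest on the scaling. Its rise in kd2 held.

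Among the other hnRNPs, HNRNPL and HNRNPLL moved apart. HNRNPL, which binds CA repeats, was at 171 and 174 CPM in control, 74.6 and 68.5 in kd1, and 84.3 and 92.5 in kd2. Its paralog HNRNPLL, known as the regulator of CD45 splicing in lymphocytes, was at 40.0 and 42.3 CPM in control, 66.4 and 65.5 in kd1, and 64.4 and 67.3 in kd2. No knockdown library of either gene overlapped with the controls, and the log2 fold changes were -1.27 and -0.96 for HNRNPL and 0.68 and 0.68 for HNRNPLL.

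HNRNPR and SYNCRIP are close paralogs of which only HNRNPR was called. HNRNPR was at 198 and 202 CPM in control, 87.0 and 75.9 in kd1, and 146 and 157 in kd2, and the knockdowns differed by 0.89 ± 0.07 (log2, edgeR adjusted p = 2.389e-08). SYNCRIP was at 105 and 108 CPM in control, 113 and 113 in kd1, and 111 and 107 in kd2. Its log2 fold changes were 0.08 (95% interval -0.03 to 0.19) and 0.03 (-0.09 to 0.14), and with library totals alone they were -0.27 and -0.14. After the GC and length correction they were 0.77 and 0.20, so that SYNCRIP was called lower with library totals, higher with the correction and not at all with TMM. Whether the paralogs differ in their change was not tested.

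HNRNPUL1 and HNRNPUL2, both related to the scaffold protein HNRNPU, also had calls of opposite sign. HNRNPUL1 was at 207 and 209 CPM in control, 156 and 163 in kd1, and 139 and 150.1 in kd2. HNRNPUL2 was at 61.3 and 65.7 CPM in control, 108.5 and 109.7 in kd1, and 75.9 and 78.9 in kd2, a rise of 0.78 and 0.28 (log2). The rise in kd2 was 0.11 and lost its call with library totals alone. HNRNPK, which binds C-rich RNA, was at 694 and 704 CPM in control, 832 and 836 in kd1, and 1097 and 1130 in kd2. Its rise of 0.67 in kd2 held, while that of 0.26 in kd1 became -0.10 with library totals alone. HNRNPU fell by 0.18 and 0.73, and its change in kd1 was 0.67 after the GC and length correction. HNRNPM fell by 0.26 and 0.30.

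The PTB paralogs, repressors of exons in neural and muscle transcripts, fell in both knockdowns. PTBP2, the neuronal form, was at 38.7 and 41.1 CPM in control, 18.8 and 17.1 in kd1, and 20.5 and 18.3 in kd2. PTBP3 was at 262 and 252.5 CPM in control, 118 and 121 in kd1, and 151 and 153 in kd2. The log2 fold changes were -1.15 and -1.04 for PTBP2 and -1.10 and -0.76 for PTBP3. In kd1 they shrank to -0.31 and -0.54 after the GC and length correction, with both still called.

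The SR proteins mostly fell. Of 11 genes, 7 fell and 2 rose in kd1, and 7 fell and 1 rose in kd2, where of all genes 39.8% fell and 38.2% rose in kd1 and 36.9% and 36.5% in kd2. SRSF1, SRSF2, SRSF4, SRSF6, SRSF7 and SRSF10 fell in both, and both calls held for each. The medians of the 11 log2 fold changes were -0.77 and -0.84, against -0.03 for all genes in each comparison.

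SRSF2, an SR protein mutated in myeloid neoplasms, was at 145 and 157 CPM in control, 64.3 and 65.9 in kd1, and 57.8 and 54.0 in kd2. It fell by 1.21 ± 0.06 (edgeR adjusted p = 1.777e-10) and 1.43 ± 0.06 (adjusted p = 6.065e-11), and its exons share 823 bp with MFSD11 on the other strand. SRSF4 was at 139.7 and 129.5 CPM in control, 51.8 and 48.3 in kd1, and 74.2 and 69.5 in kd2. SRSF10, an SR protein that represses splicing when dephosphorylated, was at 328 and 328 CPM in control, 137 and 128 in kd1, and 166 and 176 in kd2. After the GC and length correction the change of SRSF10 in kd1 was -0.58 in place of -1.31. For all 3 genes the highest knockdown library was below the lowest control. SRSF7 fell by 0.80 and 1.30, SRSF6 by 0.77 and 0.84, and SRSF1, the founding SR protein and a known oncogene, by 0.94 and 0.35.

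The other SR genes were called in 1 knockdown with TMM. SRSF5 (0.77), SRSF9 (0.47) and SRSF11 (-0.73) changed in kd1, and their log2 fold changes in kd2 were 0.08, -0.04 and 0.00. In kd1 the value of SRSF9 was 0.11 and lost its call with library totals alone, and that of SRSF11 was -0.15 after the GC and length correction. SRSF8 rose by 0.85 and SRSF12 fell by 1.32 in kd2, with values of -0.06 and 0.27 in kd1. The missing calls depend on the scaling. With library totals alone SRSF9 (-0.21) and SRSF11 (-0.17) were called lower in kd2 and SRSF8 (-0.41) in kd1. SRSF5 (0.13) was called higher in kd2, and SRSF12 (0.51) in kd1, after the GC and length correction. For all 5 with TMM, the test of the knockdowns against each other also passed. SRSF12 rests on 66 to 237 counts per library.

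TRA2A and TRA2B, SR-like activators that bind GAA repeats, fell in both knockdowns, more in kd1. TRA2A was at 148 and 150.1 CPM in control, 80.9 and 78.1 in kd1, and 137 and 125 in kd2, a difference of 0.72 ± 0.06 (log2, edgeR adjusted p = 5.658e-08) between the knockdowns. TRA2B was at 224 and 228 CPM in control, 158 and 157 in kd1, and 194 and 187 in kd2. After the GC and length correction TRA2B was at 0.21 and 0.03 (log2), so the direction of TRA2B depends on this correction.

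**Figure D4:**
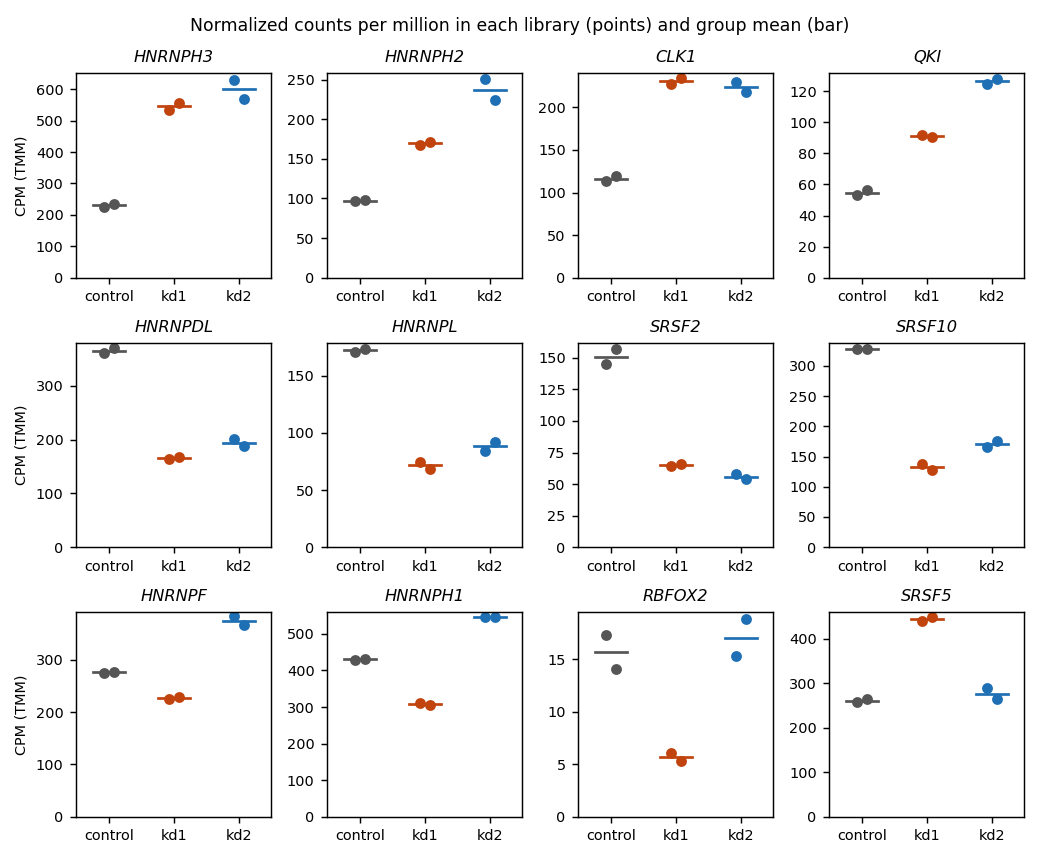
CPM (TMM) of 12 splicing regulator genes in each of the 6 libraries (points) with the mean of the group (bar), each axis starting at 0. HNRNPH3, HNRNPH2, CLK1 and QKI lie above the controls in both knockdowns, HNRNPDL, HNRNPL, SRSF2 and SRSF10 below, HNRNPF and HNRNPH1 on opposite sides, and RBFOX2 and SRSF5 away from the controls in kd1.

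Regulators of cell-type splicing had the largest median difference between the knockdowns of the 10 role groups with TMM (0.69, log2, kd2 over kd1), while after the GC and length correction hnRNP F/H had the largest (0.51 against 0.38). Of 10 genes, 2 rose and 7 fell in kd1, while 4 rose and 1 fell in kd2, and 8 were higher in kd2 than in kd1. Of all genes tested, 38.2% rose and 39.8% fell in kd1, 36.5% and 36.9% in kd2, and 34.9% were higher in kd2 than in kd1. QKI, which promotes circular RNA and myelin mRNA splicing, rose in both. It was at 52.97 and 56.6 CPM in control, 92.0 and 90.7 in kd1, and 125 and 128 in kd2, with log2 fold changes of 0.74 ± 0.06 (edgeR adjusted p = 2.384e-08) and 1.20 ± 0.06 (adjusted p = 1.75e-10). In kd1 the value for QKI was 0.38 with library totals alone and 1.55 after the GC and length correction, with both called. MBNL2 was at 27.5 and 27.2 CPM in control, 44.4 and 42.8 in kd1, and 37.3 and 39.7 in kd2. Of the 7 falls in kd1, those of ESRP1, MBNL1, MBNL3 and KHDRBS1 did not hold. MBNL1, a paralog of MBNL2 and the muscleblind protein sequestered in myotonic dystrophy, fell by 0.64 in kd1 (-0.04 after the GC and length correction) and was at -0.02 in kd2. In kd2 it was called lower with library totals alone (-0.19) and higher after the correction (0.16).

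The epithelial regulators ESRP1 and ESRP2, which hold epithelial isoforms in place, did not move together in kd2. ESRP2 was at 78.6 and 76.5 CPM in control, 35.9 and 32.7 in kd1, and 58.1 and 62.9 in kd2, lower in both. ESRP1 was at 228 and 238 CPM in control, 194 and 201 in kd1, and 299.7 and 302 in kd2. Its change in kd1 of -0.24 was -0.06 after the GC and length correction. MBNL3 was at 10.6 and 9.82 CPM in control, 7.15 and 7.06 in kd1, and 13.2 and 13.4 in kd2, and its change in kd1 of -0.52 became 0.24 with that correction. Its rise in kd2 of 0.38 was 0.21 and lost its call with library totals alone.

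RBFOX2, which reads UGCAUG motifs, had with TMM the largest fall of the 53 genes in kd1 and no call in kd2. The fall of SRSF4 in kd1 (-1.43 ± 0.07, log2) lay within the SE of that of RBFOX2. RBFOX2 was at 17.3 and 14.0 CPM in control, 6.09 and 5.34 in kd1, and 15.3 and 18.8 in kd2. The log2 fold changes were -1.45 ± 0.15 (edgeR adjusted p = 3.541e-07) and 0.12 (95% interval -0.16 to 0.40), and the knockdowns differed by 1.57 ± 0.14 (adjusted p = 2.142e-07). After the GC and length correction they were -0.82, smaller than the falls of SRSF2 (-1.34) and others, and 0.44, which was then called. The difference between the knockdowns held. CELF1 fell by 0.65 and KHDRBS1 (Sam68) by 0.21 in kd1, with 0.10 and 0.12 in kd2. CELF1 was called higher in kd2 after the GC and length correction (0.37). KHDRBS3 had 13 to 39 counts per library, and its log2 fold changes were -0.10 in kd1 (95% interval -1.26 to 1.07) and 0.69 in kd2 (-0.38 to 1.77), so a change was not detectable at this depth.

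In the FET and TDP-43 group, EWSR1, an RNA- and DNA-binding protein fused to FLI1 in Ewing sarcoma, fell. It was at 473 and 481 CPM in control, 268 and 268 in kd1, and 261 and 249 in kd2. TARDBP, which encodes TDP-43 and represses cryptic exons, was at 214 and 219 CPM in control, 278 and 279.5 in kd1, and 318 and 299.8 in kd2, a rise of 0.36 and 0.51 (log2) that was 0.01 in kd1 with library totals alone. TAF15 rose by 0.27 in kd1 and was at -0.16 in kd2. With library totals alone it lost its call in kd1 (-0.0826) and was called lower in kd2 (-0.33), and after the GC and length correction its value in kd1 was 0.95.

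Of the SR-related coactivators, RBM39, the target of aryl sulfonamide degraders, was at 405 and 405 CPM in control, 451 and 441 in kd1, and 599 and 580.3 in kd2. Its change in kd1 of 0.14 became -0.21 with library totals alone, while its rise of 0.54 in kd2 held. SON, which aids weak splice sites, fell by 0.37 in kd1 and was at -0.11 in kd2, and both values were called higher after the GC and length correction (0.27 and 0.22). With library totals alone SON was called lower in kd2 as well (-0.28).

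Of the kinases that phosphorylate SR proteins, CLK1 and CLK4 rose in both knockdowns and SRPK1 fell in both. CLK1, a nuclear kinase, was at 113 and 119 CPM in control, 227.5 and 234 in kd1, and 229 and 218 in kd2. CLK4 was at 18.7 and 19.0 CPM in control, 35.7 and 39.0 in kd1, and 38.4 and 35.0 in kd2. Every knockdown library was above both controls. The log2 fold changes were 0.99 ± 0.05 and 0.94 ± 0.05 for CLK1 and 0.98 ± 0.08 and 0.96 ± 0.08 for CLK4, with edgeR adjusted p of 9.158e-08 or lower.

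SRPK1, which sends SR proteins into the nucleus, was at 56.3 and 58.2 CPM in control, 29.3 and 30.7 in kd1, and 36.6 and 38.5 in kd2, a fall of 0.93 and 0.61 (log2). With TMM, SRPK2 was called in kd2 only (0.64), with -0.03 in kd1. With library totals alone its value in kd1 was -0.38 and after the GC and length correction 0.44, each called. Its difference between the knockdowns was 0.67 ± 0.06 (edgeR adjusted p = 2.014e-07). Its exons share 369 bp with KMT2E on the opposite strand.

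Directly compared, 32 of the 53 genes were higher in kd2 than in kd1, 12 were lower and 9 were not called. Of all genes tested, 68.8% were called (34.9% higher, 33.8% lower), beside 83% of the splicing regulators. With a fold change of at least 1.5, 30.2% of the splicing regulators and 44.8% of all genes were called. For 33 genes both kd2 libraries lay above those of kd1, for 14 both lay below and 6 overlapped, and 83.1% of all genes did not overlap. This split also moved with the scaling, to 38 higher and 7 lower with library totals alone and to 19 higher and 25 lower after the GC and length correction. Of all 16510 genes tested, 7065 were higher and 4506 lower with library totals alone, and 5559 and 5577 after the correction. Across all genes, the fold change between the knockdowns followed GC content with a Spearman rho of -0.31 and exonic length with 0.24. Against control, rho with GC content and length was 0.205 and -0.29 in kd1, and -0.02 and -0.13 in kd2. These are a description over 15950 genes that share libraries. The calls that held numbered 18 of 32 and 7 of 12, and with the minimum fold of 1.5 alone 14 and 2 were called. Among those that held, RBFOX2, SRSF8, MBNL3, HNRNPR, HNRNPH1 and ESRP2 were higher in kd2 by 0.82 to 1.57 (log2), and SRSF12, SRSF5 and HNRNPU were lower by 0.55 to 1.60 with TMM. HNRNPR was higher in kd2 by 0.33, MBNL3 by 0.39 and HNRNPH1 by 0.51 after the GC and length correction.

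A second list of 50 other splicing genes, among them DEAD-box helicases, RBM proteins, spliceosome-associated cofactors and neural regulators, gave the surrounding pathway. Of these, 47 passed the filter and MATR3, RBFOX1 and CELF2 did not. MATR3 had 0 to 2 counts per library, and as the annotation used in counting is not given, this is not taken as a measure of its expression. In kd1, 12 rose, 27 fell and 8 were not called, and in kd2, 10 rose, 27 fell and 10 were not called, beside 38.2% higher and 39.8% lower of all genes in kd1 and 36.5% and 36.9% in kd2. The median log2 fold changes were -0.23 and -0.22, against -0.03 for all genes in each. With library totals alone 2 were higher and 35 lower in kd1, and 8 and 34 in kd2. Of all 16510 genes tested, 4596 were then higher and 8420 lower in kd1, and 4967 and 7220 in kd2. The GC and length correction gave 23 higher and 19 lower of the second list in kd1, and 11 and 21 in kd2. For all genes it gave 6482 and 6207 in kd1, and 6343 and 5834 in kd2. With that correction the rises in kd1 outnumbered the falls. ILF2, a protein of double-stranded RNA complexes, was at 363 and 364 CPM in control, 758.5 and 755 in kd1, and 495 and 449.6 in kd2. CLK3, a relative of CLK1 and CLK4, was at 63.1 and 62.9 CPM in control, 76.8 and 80.7 in kd1, and 109 and 108 in kd2. CLK2, a relative not named by the rule, fell in both, at 81.4 and 87.6 CPM in control, 73.3 and 70.4 in kd1, and 48.7 and 50.8 in kd2. SRRM4, a neural splicing activator also outside the rule, fell in both with many counts, at 248 and 237 CPM in control, 36.2 and 37.4 in kd1, and 83.6 and 98.1 in kd2. The 2 falls that the rule picked by their mean fitted change were of genes with few counts. RBM20, a muscle splicing regulator, had 60 and 61 counts in control, 0 and 12 in kd1, and 5 and 6 in kd2, and a count of 0 allows up to 3 counts. Its call in kd1 did not hold, and its log2 fold change there ranged from -9.03 to -2.27 on leaving out 1 library. RBM24 had 20 and 22 counts in control, 3 and 4 in kd1, and 1 and 2 in kd2.

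Of the genes kept out of the set, HNRNPA1 fell in both knockdowns (-1.17 and -0.94, log2) and PTBP1 in both (-0.54 and -0.26). HNRNPA2B1 (-0.44) and SRSF3 (-0.79) fell in kd1, with 0.05 and 0.01 in kd2, and RBM4 was at 0.08 and 0.00. With library totals alone SRSF3 (-0.17) and HNRNPA2B1 (-0.12) were called lower in kd2 and RBM4 (-0.27) in kd1. After the GC and length correction HNRNPA2B1 was called higher in both knockdowns (0.26 and 0.32) and RBM4 in kd1 (0.44).

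Ratios between related genes within 1 library do not depend on a scaling factor for the whole library, though the GC and length correction can move them. The pairs were picked after their values had been seen and are given as a description, with no test. For HNRNPLL over HNRNPL, the ratio of counts was 0.234 and 0.244 in control, 0.889 and 0.955 in kd1, and 0.764 and 0.728 in kd2. For HNRNPH3 over HNRNPH1 it was 0.527 and 0.545, 1.71 and 1.82, and 1.15 and 1.04. In both pairs every knockdown library was above every control.

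SRSF5 over SRSF4 changed more in kd1, from 1.85 and 2.04 in control to 8.51 and 9.32, than in kd2, at 3.89 and 3.80. This order held after the GC and length correction (1.91 and 0.92, log2). The ratio of CLK1 to CLK4 was 6.05 and 6.27 in control, 6.38 and 6.003 in kd1, and 5.97 and 6.24 in kd2, with overlapping ranges in all 3 groups. After the GC and length correction its log2 change was -0.24 in kd1 and -0.11 in kd2. TRA2A over TRA2B was 0.661 and 0.659 in control, 0.512 and 0.497 in kd1, and 0.709 and 0.670 in kd2. Its log2 change in kd2 of 0.06 became -0.33 after the GC and length correction, and that in kd1 went from -0.39 to -1.08.

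**Figure D5:**
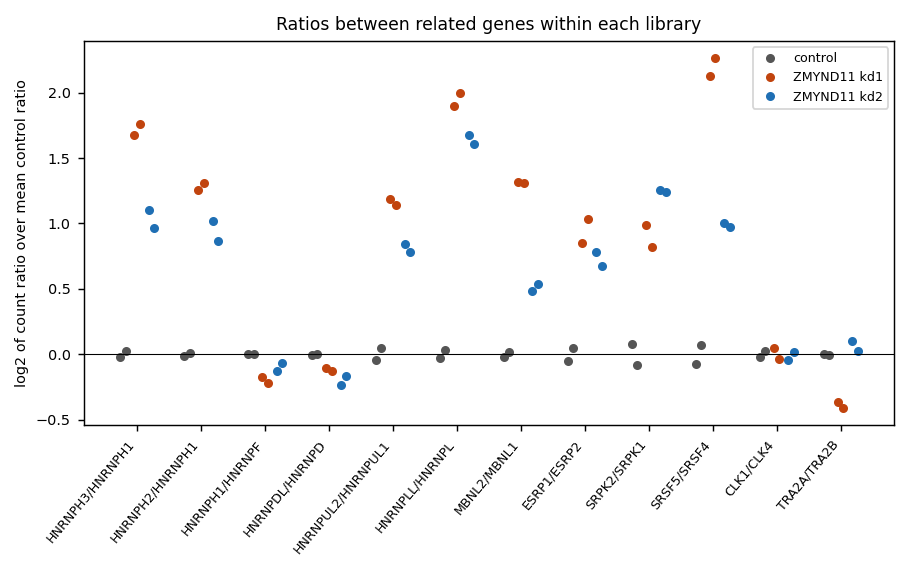
Ratio of counts between 12 pairs of related genes in each library, as log2 of the ratio over the mean ratio of the control libraries. CLK1 over CLK4 stays near 0 in all 6 libraries, while HNRNPLL over HNRNPL and HNRNPH3 over HNRNPH1 are above the controls in all 4 knockdown libraries.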

How the data were processed

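The 6 RNA-seq libraries of 22Rv1 cells, 2 per group, were grouped by their labels. Per the submitters' processing notes and the study's methods, the authors checked reads with FastQC 0.11.9, aligned them to hg38 with STAR 2.7.9a and used HTSeq 0.13.5; its annotation and strand setting are not given in the sources used here. The authors deposited raw counts for each gene symbol, with no normalization. The members, gene lists, role groups and alternatives were chosen with earlier results of these data known.

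From the counts, 16510 genes passed filterByExpr and were fitted in 1 model of the 3 groups with edgeR 4.0.16 in R 4.3.3 (TMM, quasi-likelihood test, 3 residual degrees of freedom). Benjamini-Hochberg adjustment ran over all genes tested, and a gene was called at an adjusted p under 0.05. The standard error was taken as the absolute log2 fold change over the square root of F. TMM assumes that most genes do not change. Total counts of 26844128 to 38193748 per library set the precision of low counts.

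Genes given in every library were, per role group, up to 3 largest rises and falls called the same way in both knockdowns, members called in opposite directions or in neither, ZMYND11, and from the second list the 2 largest rises and falls. RBFOX2 and the other members given with values outside this rule were chosen after their values were seen. Lengths and positions came from GENCODE 44, in which 32852 of 35322 symbols matched by name. Alternatives were DESeq2 size factors, library totals alone, the DESeq2 1.42.0 Wald test, other filters, a replicate block, only the groups compared, a GC and length correction (lowess span 0.3), a minimum fold of 1.5 and omission of each library. The functions were tested on simulated counts in which few genes changed, so that test cannot bear on the scaling of data in which most genes were called. Figures used matplotlib 3.10.9 in Python 3.11.15. Some start-region sequence is not reported here.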

Additional observations from a re-analysis of the deposited data

Results flagged for a closer look

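In 4 of the 53 genes the knockdowns were called in opposite directions against control, lower in kd1 and higher in kd2, and the test of the knockdowns against each other passed. The difference (kd2 minus kd1, log2, edgeR) was 0.72 for HNRNPF, 0.82 for HNRNPH1, 0.61 for ESRP1 and 0.90 for MBNL3. Of all genes tested, 9.1% had opposite calls. HNRNPF kept both calls against control under every alternative scaling, filter, tool and left-out library. HNRNPH1, ESRP1 and MBNL3 kept the difference between the knockdowns, while their fall in kd1 became 0.04, -0.06 and 0.24 after the GC and length correction. The rise of MBNL3 in kd2 also lost its call, at 0.21 with library totals alone and 0.33 without control replicate 2. The cause was not tested. No group had 4 or more libraries, so single libraries were not tested as outliers.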

How the results depend on the processing

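A value counts as reversed here where its sign turned and it was called with TMM or under the alternative, and turns of sign in values called under neither are not counted. DESeq2 size factors, the DESeq2 Wald test, other filters, the replicate block, fits of only the groups compared and left-out libraries reversed no member. Under library totals alone 14 of the values of members reversed and under the GC and length correction 22, and the cause was not tested. Library totals alone gave log2 fold changes against control in kd1 of -0.10 for HNRNPK, -0.27 for SYNCRIP, -0.0826 for TAF15, -0.21 for RBM39, -0.27 for RBM4 and -0.0337 for CLK3. In kd2 they gave -0.0053 for HNRNPC, -0.14 for SYNCRIP, -0.12 for HNRNPA2B1 and -0.17 for SRSF3. Between the knockdowns they gave 0.0614 for HNRNPA0, 0.18 for HNRNPLL, 0.14 for HNRNPM, 0.0420 for HNRNPUL1, 0.13 for SYNCRIP, 0.0060 for MBNL2, 0.11 for EWSR1 and 0.14 for CLK1. The GC and length correction gave, in kd1, 0.17 for HNRNPA3, 0.0444 for HNRNPH1, 0.67 for HNRNPU, 0.21 for TRA2B, 0.24 for MBNL3, 0.27 for SON, 0.44 for SRPK2 and 0.26 for HNRNPA2B1. In kd2 it gave 0.0283 for TRA2B, 0.16 for MBNL1 and 0.22 for SON. Between the knockdowns it gave -0.28 for HNRNPA3, -0.10 for HNRNPD, -0.0172 for HNRNPDL, -0.21 for HNRNPH3, -0.45 for PTBP2, -0.15 for PTBP3, -0.16 for SRSF10, -0.18 for TRA2B, -0.0136 for QKI, -0.16 for TARDBP, -0.0934 for RBM39, -0.0555 for SON and -0.0922 for HNRNPA1. RBM20 between the knockdowns ranged from -1.34 (without kd1 replicate 1) to 5.42 (without kd1 replicate 2, which leaves a library with 0 counts).

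Against the main counts of members (16 higher and 32 lower in kd1, 19 and 23 in kd2, 32 and 12 between the knockdowns), library totals alone gave 10 higher in kd1 and 7 lower between the knockdowns. The GC and length correction gave 19 higher and 25 lower between the knockdowns. A fold of at least 1.5 gave 10 and 21, 10 and 14, and 14 and 2, and left 0 members called in opposite directions. Leaving out 1 library gave 14 to 16 and 31 to 32, 18 to 21 and 21 to 24, and 28 to 32 and 7 to 13, the 7 without kd1 replicate 2, and 3 to 5 members in opposite directions. For the second list (12 and 27, 10 and 27, 19 and 14), library totals alone gave 2 higher in kd1 and 29 higher and 9 lower between the knockdowns. The GC and length correction gave 23 higher in kd1 and 10 higher and 26 lower between the knockdowns. A fold of at least 1.5 gave 3 and 14, 4 and 14, and 5 and 8, and leaving out 1 library gave 9 to 14 lower between the knockdowns, the 9 without kd1 replicate 1. Among members, leaving out 1 library ended these calls against control. In kd1 they were HNRNPU (-0.17 without control replicate 2), KHDRBS1 (-0.18 without control replicate 1, -0.17 without kd1 replicate 1), TAF15 (0.18 without kd1 replicate 2) and RBM39 (0.13 to 0.16 without any 1 of the control and kd1 libraries). In kd2 they were HNRNPA3 (-0.0970 to -0.15, on omission of any library other than kd2 replicate 1), HNRNPC (0.13 without control replicate 1), TRA2A (-0.19 and -0.17 without control replicate 1 and 2) and MBNL3 (0.33 without control replicate 2).

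Replicate numbers did not pair the libraries (correlation of their deviations 0.006, -0.026 and -0.044), and with the replicate block the members split 16 and 32, 19 and 22, and 31 and 9. With 2 libraries per group, changes of genes of few counts such as KHDRBS3 and RBM20 are imprecise, and no spike-in fixes the scale between libraries.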
